A study of Mus musculus with 8 samples.

Results

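Ankrd34c, Trank1, Pak7 and Wnt3 are 4 protein-coding genes that were picked because their transcripts were much higher in pituitary lobes labelled transgenic than in WT lobes. They were chosen by their log2 differences from WT in these same libraries and were found by gene symbol and Ensembl identifier, and they are 4 of the 48526 genes counted and of the 14027 protein-coding genes whose counts passed a minimum mean of 20. RNA-seq was done on neuro-intermediate lobes of mouse pituitaries, which hold the melanotropes, the cells that make the hormone precursor POMC. There were 8 libraries in 4 groups of 2: WT, ACreb3l2, AXBP1 and ACreb3l2/AXBP1, all of strain C57B6, and every library was made from a pool of 5 lobes. The ACreb3l2 and AXBP1 transgenes encode acidic dominant negative proteins against the transcription factors Creb3l2 and XBP1, and the last group carried both. In the study's methods the mice were males 3 months old and both transgenes were driven by the rat POMC promoter, so the transgenes were meant for POMC cells while the RNA came from whole lobes. Which founder lines were sequenced is not given in the sources used here, nor whether the 2 pools of a group came from separate litters, so the spread between libraries may be partly technical.

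The libraries held 28256086 to 37988912 counts. Both transgenes carry the coding sequence of their target gene from the leucine zipper on, and the study's text says that lines with much more transgene than endogenous mRNA were kept, so transgene reads would be expected to add to the counts of Creb3l2 and Xbp1. Normalized counts of Creb3l2 were 28156 and 28642 in WT, 26738 and 27174 in libraries labelled ACreb3l2, 18810 and 22801 with the label AXBP1, and 14024 and 21176 where the label gives both. No transgenic library was above WT, and ACreb3l2 lay above AXBP1 without overlap. Those of Xbp1 were 11860 and 13417 in WT, 9142 and 9192 with the label ACreb3l2, 12431 and 13831 with AXBP1, and 12837 and 17615 where the label gives both. Both groups labelled with the AXBP1 transgene thus lay above ACreb3l2 in Xbp1 and overlapped WT. A rise over WT was not seen for Creb3l2, nor without overlap for Xbp1, the reason was not tested, and every group name below, with each direction drawn from it, stands for the libraries so labelled. Although the labels give the cell type as melanotropes, markers of other cells were present too. The 6 melanotrope markers summed to 110303 to 152153 CPM (counts scaled to a common library total) in WT, 111244 to 122716 with ACreb3l2, 102745 to 117473 with AXBP1 and 72506 to 92688 with both, and Pomc alone made up 94.5% to 96.4% of these sums. In the edgeR fit over all 8 libraries, 0 of 6 had a positive log2 difference from WT with ACreb3l2 (median -0.26), 1 with AXBP1 (median -0.28) and 0 with both (median -0.75), where they ran from -0.94 for Pcsk1, a POMC-cleaving protease, to -0.08 for Pax7, the transcription factor that specifies melanotropes. In a bulk lobe, fewer cells of a type and less RNA per cell cannot be told apart.

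What is known of the roles of the 4 proteins is given as background. Wnt3 is a secreted ligand that binds Frizzled receptors with the coreceptors Lrp5 and Lrp6. This halts the breakdown of beta-catenin, which then acts with TCF and LEF factors on target genes such as Axin2 and Lgr5. Pak7, also called PAK5, is a serine/threonine kinase of the p21-activated kinase family, is bound by the small GTPase Cdc42 and is known mainly from brain. Ankrd34c and Trank1 encode proteins with ankyrin repeats, a fold that binds other proteins, and little is known of what either does.

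In the GENCODE M21 annotation of mm10, Ankrd34c (ENSMUSG00000047606) lies at chr9:89725245-89738475 on the minus strand and Trank1 (ENSMUSG00000062296) at chr9:111311739-111395775 on the plus strand. Pak7 (ENSMUSG00000039913) spans chr2:136081104-136387967 on the minus strand, and Wnt3 (ENSMUSG00000000125) spans chr11:103774150-103817957 on the plus strand. Exons cover 5487 bases of Ankrd34c, 13123 of Trank1, 6505 of Pak7 and 3076 of Wnt3. The annotation gives Trank1 7 transcripts, Pak7 3, Ankrd34c 2 and Wnt3 1. Of the 4, Pak7 is the one that another annotated gene overlaps, the antisense gene Gm14218, which had 0 counts in all 8 libraries. Whether the counting used strand is not stated.

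The promoters are shown because the genes were high in the same libraries, and both transgenes target transcription factors of the bZIP class, which bind DNA sites with an ACGT core. Each run holds 250 bases before and 50 bases after the start of the gene, 5′ to 3′ on the gene's own strand, from RefSeq on GRCm38.p6. The RefSeq start is that of the GENCODE locus above for Ankrd34c, Trank1 and Pak7 and lies 25 bases downstream of it for Wnt3. Capitals mark the letters ACGTG on either strand, as well as those of TGACG and those of CCACG. The windows lie at chr9:89738426-89738725 for Ankrd34c (minus strand), chr9:111311489-111311788 for Trank1 (plus), chr2:136387918-136388217 for Pak7 (minus) and chr11:103773925-103774224 for Wnt3 (plus).
Ankrd34c: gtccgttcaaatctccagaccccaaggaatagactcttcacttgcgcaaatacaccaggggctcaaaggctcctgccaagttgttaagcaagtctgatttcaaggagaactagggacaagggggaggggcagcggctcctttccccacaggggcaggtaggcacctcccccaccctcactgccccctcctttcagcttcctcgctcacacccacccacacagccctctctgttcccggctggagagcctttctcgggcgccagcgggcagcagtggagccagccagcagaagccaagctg
Trank1: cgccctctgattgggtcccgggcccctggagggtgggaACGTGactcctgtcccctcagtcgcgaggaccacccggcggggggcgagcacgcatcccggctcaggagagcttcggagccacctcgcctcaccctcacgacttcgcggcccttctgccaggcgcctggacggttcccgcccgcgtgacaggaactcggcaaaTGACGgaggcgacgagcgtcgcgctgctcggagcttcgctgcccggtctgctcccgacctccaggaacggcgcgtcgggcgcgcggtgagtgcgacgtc
Pak7: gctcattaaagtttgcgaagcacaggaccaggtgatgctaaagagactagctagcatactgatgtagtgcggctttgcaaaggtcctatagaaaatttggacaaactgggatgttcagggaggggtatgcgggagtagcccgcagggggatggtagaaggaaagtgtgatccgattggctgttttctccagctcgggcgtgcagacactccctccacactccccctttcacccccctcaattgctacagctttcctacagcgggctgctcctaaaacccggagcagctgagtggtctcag
Wnt3: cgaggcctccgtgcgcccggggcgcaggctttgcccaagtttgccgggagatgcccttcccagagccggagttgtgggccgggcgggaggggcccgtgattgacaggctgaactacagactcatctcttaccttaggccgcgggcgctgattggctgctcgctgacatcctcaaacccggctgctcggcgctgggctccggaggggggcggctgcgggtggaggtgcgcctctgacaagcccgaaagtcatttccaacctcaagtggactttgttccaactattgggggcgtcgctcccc

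The Trank1 window alone held a match to these letters. ACGTG stood 212 bases before the start and TGACG 49 bases before it, both on the gene's strand, and they did not overlap. The core ACGT also stands in the last bases of this window (gcgacgtc), where no searched run matches, so it is not marked. TGACG and CCACG do not hold ACGT in full. Among 32851 promoter windows of this length, 19.6% held ACGTG on a strand, 20.8% held TGACG, 32.8% held CCACG and 49.6% held at least 1 of the 3, where TGACGTG would count for ACGTG and for TGACG. A match is a run of letters and not a measured binding site, and a window without one says nothing of sites elsewhere in the gene. GC content was 71.7% in the Trank1 window, 65.7% in Wnt3, 60.3% in Ankrd34c and 53.3% in Pak7, against a median of 52.7% over all windows.

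A normalized count is a count divided by the library's TMM-scaled size and brought back to the mean depth. A log2 difference is edgeR's estimate from the counts of all 8 libraries, given with its SE. The differences from WT chose the genes and are therefore given as a description with no test. Differences between transgenic groups were tested, though they use the same transgenic libraries as the differences that chose the genes. A pick for high values in some of these libraries can widen such differences by itself.

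Of the 14027 tested coding genes, Ankrd34c had the highest log2 difference from WT in the libraries labelled ACreb3l2/AXBP1. The WT pair of libraries gave normalized counts of 25.2 and 38.1, the AXBP1 pair 102 and 125, the ACreb3l2 pair 161 and 233, and the ACreb3l2/AXBP1 pair 149 and 280. All 6 transgenic libraries lay above both WT libraries, and the lowest of them was an AXBP1 library. The log2 difference from WT was 2.63 (SE 0.371) in ACreb3l2, 1.84 (SE 0.380) in AXBP1 and 2.77 (SE 0.369) in ACreb3l2/AXBP1. The 2 ACreb3l2/AXBP1 libraries were far apart, and without replicate 2 of that group the difference was 2.23, the lowest value with any library left out.

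Trank1 was high in both groups labelled with the ACreb3l2 transgene and overlapped WT in AXBP1. Normalized counts were 60.1 and 79.5 for WT and 74.0 and 133 for AXBP1, whereas they were 242 and 260 for ACreb3l2 and 180 and 177 for ACreb3l2/AXBP1. Thus AXBP1 overlapped WT, while both groups with the ACreb3l2 transgene lay above the other groups without overlap. The log2 difference from WT was 1.85 (SE 0.260) in ACreb3l2 and 1.36 (SE 0.261) in ACreb3l2/AXBP1. In AXBP1 it was 0.56 (SE 0.271) and went from 0.09 without AXBP1 replicate 2 to 0.93 without AXBP1 replicate 1, and it was 0.13 on the log2(FPKM + 0.1) scale.

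Pak7, the kinase, had its groups in a graded order in the counts, of which the last step did not hold in FPKM. Its normalized counts were 30.1 and 38.1 in WT, 50.3 and 61.1 in AXBP1, 95.3 and 104 in ACreb3l2, and 107 and 139 in ACreb3l2/AXBP1. In counts no group overlapped the next, but the step from ACreb3l2 to ACreb3l2/AXBP1 was narrow, with the lower library of the latter 1.03 times the higher one of the former. FPKM of these groups overlapped, at 0.676 and 0.701 in ACreb3l2 and 0.666 and 0.933 in ACreb3l2/AXBP1. The log2 difference from WT was 1.55 (SE 0.252) in ACreb3l2, 0.71 (SE 0.263) in AXBP1 and 1.85 (SE 0.249) in ACreb3l2/AXBP1.

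Wnt3, the ligand, rested on the fewest reads and had nearly the same level in AXBP1 and ACreb3l2/AXBP1. WT libraries held 7 and 6 raw reads of it, AXBP1 libraries 23 and 22, ACreb3l2/AXBP1 libraries 24 and 28, and ACreb3l2 libraries 38 and 30. For counting error alone, the 95% Poisson intervals of the WT counts run from 2.81 to 14.4 and from 2.20 to 13.1, and the first overlaps that of the lowest transgenic count, 22, which runs from 13.8 to 33.3. After normalization these became 6.79 and 6.54 for WT, 22.7 and 25.4 for AXBP1, 23.7 and 24.8 for ACreb3l2/AXBP1 and 32.6 and 34.2 for ACreb3l2. The log2 difference from WT was 2.30 (SE 0.337) in ACreb3l2, 1.83 (SE 0.353) in AXBP1 and 1.84 (SE 0.347) in ACreb3l2/AXBP1. With so few WT reads, Wnt3 passed the minimum mean count of 20 only through its transgenic libraries.

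**Figure D1:**
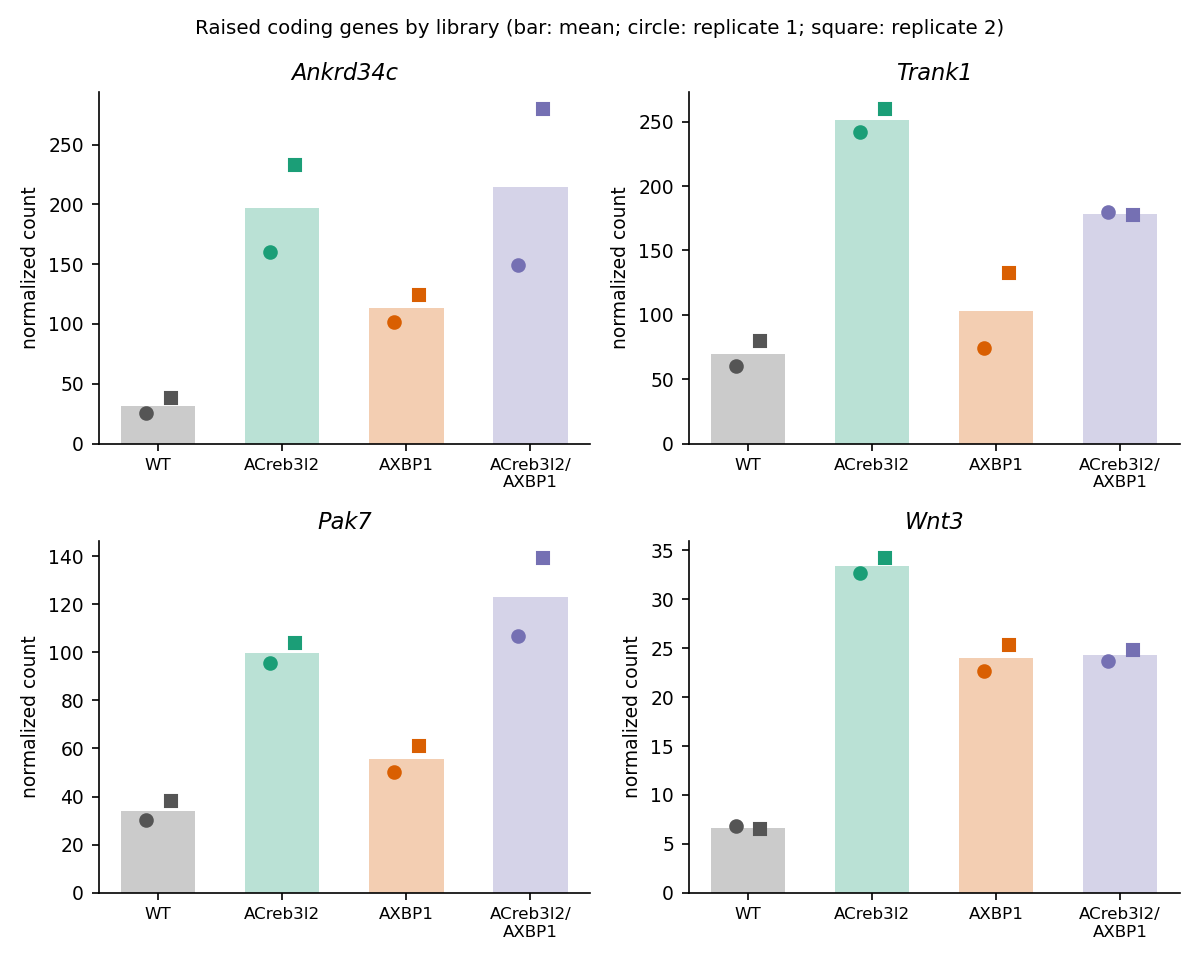
Normalized counts (y axis, from 0) of Ankrd34c, Trank1, Pak7 and Wnt3 in each library, with the 4 groups on the x axis. Bars are means of 2 libraries, circles replicate 1 and squares replicate 2. The ACreb3l2 libraries lie above the WT libraries for all 4 genes, and for Trank1 the AXBP1 libraries overlap WT.

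Both libraries of ACreb3l2 lay above both WT libraries for 4 of 4 genes, as did 22.3% of all 15580 tested genes. In AXBP1 this held for 3 of 4, beside 22.3% of tested genes, and in ACreb3l2/AXBP1 for 4 of 4, beside 29.6%. As these contrasts chose the genes, nothing is read from the counts. Among the 14027 tested coding genes ordered by log2 difference in ACreb3l2/AXBP1 minus WT, Ankrd34c came 1, Pak7 9, Wnt3 10 and Trank1 23. For ACreb3l2 minus WT the places were 6 for Ankrd34c, 8 for Wnt3, 9 for Trank1 and 14 for Pak7. For AXBP1 minus WT they were 4 for Ankrd34c, 5 for Wnt3, 95 for Pak7 and 226 for Trank1. The pick had no fixed limit. Of the coding genes outside the 4 that had an edgeR adjusted p under 0.05 and were higher in ACreb3l2 than in WT, Zbbx (log2 difference 2.44, SE 0.378) had a value between those of Ankrd34c and Wnt3, and Col6a5 (1.73, SE 0.385), a collagen chain, between those of Trank1 and Pak7. The next values below that of Pak7 were those of Angpt2 (1.47, SE 0.228), a ligand of the endothelial receptor Tek, the myelin gene Mobp (1.45, SE 0.249), the receptor phosphatase Ptpro (1.37, SE 0.185) and Ucma (1.34, SE 0.229). In ACreb3l2/AXBP1, Slamf1 (2.38, SE 0.413), a receptor of immune cells, Lars2 (2.04, SE 0.382), the mitochondrial leucyl-tRNA synthetase, Oprl1 (1.96, SE 0.263), the nociceptin receptor, Zbbx (1.96, SE 0.390) and the peptide hormone Cck (1.96), all called in the same way, had values between those of Ankrd34c and Pak7. Col6a5 (1.84, SE 0.380) and the myosin Myo7b (1.66, SE 0.299), also called, were the next below Wnt3. Mean normalized counts in WT were 6.60 for Zbbx, 6.72 for Slamf1, 9.63 for Col6a5 and 13.1 for Cck. Like Wnt3, these genes passed the minimum mean count of 20 only through their transgenic libraries, so nothing is read from their calls.

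On the log2 scale the double transgenic group was below the sum of the single groups for each gene. The log2 difference from WT in ACreb3l2/AXBP1 minus the sum of those in ACreb3l2 and AXBP1 was -2.29 (SE 0.448) for Wnt3, -1.70 (SE 0.492) for Ankrd34c, -1.05 (SE 0.362) for Trank1 and -0.40 (SE 0.346) for Pak7. These values contain the WT libraries that chose the genes, and no test is given.

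Between the transgenic groups, 0 of 12 differences of the 4 genes passed an edgeR adjusted p of 0.05, while 6 of the 12 had an unadjusted p below 0.05 and DESeq2 called 1. Of all 15580 genes, 9.49% had such an unadjusted p in ACreb3l2 minus AXBP1, 11.1% in ACreb3l2/AXBP1 minus AXBP1 and 7.14% in ACreb3l2/AXBP1 minus ACreb3l2, and DESeq2 called 1.69%, 1.82% and 0.231% in the same order. For Wnt3, DESeq2 gave no adjusted p in ACreb3l2 minus AXBP1 or in ACreb3l2/AXBP1 minus AXBP1. All 6 differences with an unadjusted p below 0.05 were higher values in groups labelled with the ACreb3l2 transgene than in AXBP1. The genes were picked for high values in these same transgenic libraries. The pick can raise such differences by itself, so nothing is read from the 6. When genes of low count were left in the table, the edgeR test called those same 6, with adjusted p from 9.71e-08 to 0.049. That fit also called more of all genes, 730 of 29547 (2.47%) in ACreb3l2 minus AXBP1 and 755 (2.56%) in ACreb3l2/AXBP1 minus AXBP1, against 112 and 97 of 15580 with the filter, so these calls depend on the filter.

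In ACreb3l2 against AXBP1, all 4 genes were higher in both ACreb3l2 libraries, as were 21.5% of tested genes. None of the 4 was called, beside 0.0385% of tested genes called higher and 0.68% called lower. Trank1 came nearest, with a log2 difference of 1.29 (SE 0.252, 95% interval 0.73 to 1.85, edgeR adjusted p = 0.0578). Besides the fit without the filter (9.71e-08), Trank1 was called here by DESeq2 (adjusted p = 0.00118), with a replicate block (edgeR adjusted p = 0.0438) and without AXBP1 replicate 2 (0.0474), and the highest adjusted p over the alternatives was 0.372, without AXBP1 replicate 1. Pak7 differed by 0.84 (SE 0.240, edgeR adjusted p = 0.207), Ankrd34c by 0.79 (SE 0.324, adjusted p = 0.477) and Wnt3 by 0.48 (SE 0.278, adjusted p = 0.677).

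In ACreb3l2/AXBP1 against AXBP1, Ankrd34c, Trank1 and Pak7 were higher in both double transgenic libraries, beside 22.7% of tested genes, and Wnt3 overlapped. No member passed the test, and 0.00642% of tested genes were called higher and 0.616% lower. Pak7 came nearest with 1.15 (SE 0.237, 95% interval 0.62 to 1.67, edgeR adjusted p = 0.0732), and its adjusted p ran from 0.000936 to 0.557 over the alternatives. The differences were 0.93 for Ankrd34c (SE 0.322, adjusted p = 0.332) and 0.80 for Trank1 (SE 0.253, adjusted p = 0.264). The Wnt3 difference was 0.02 (SE 0.286, adjusted p = 0.987), and its 95% interval from -0.62 to 0.65 leaves room for a change in either direction.

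In ACreb3l2/AXBP1 against ACreb3l2, edgeR called 0 of 15580 genes at the adjusted threshold, 1112 genes had an unadjusted p below 0.05 and DESeq2 called 36. Ankrd34c overlapped between the groups, with a difference of 0.14 (95% interval -0.57 to 0.84). Pak7 differed by 0.31 (-0.19 to 0.81), Wnt3 by -0.46 (-1.07 to 0.15) and Trank1 by -0.49 (-1.03 to 0.04), and the adjusted p for these 4 ran from 0.688 for Trank1 to 0.923 for Ankrd34c. Both double transgenic libraries lay below both ACreb3l2 libraries for Wnt3 and Trank1, as they did for 18.6% of tested genes, and above them for Pak7, as they did for 18.3%.

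**Figure D2:**
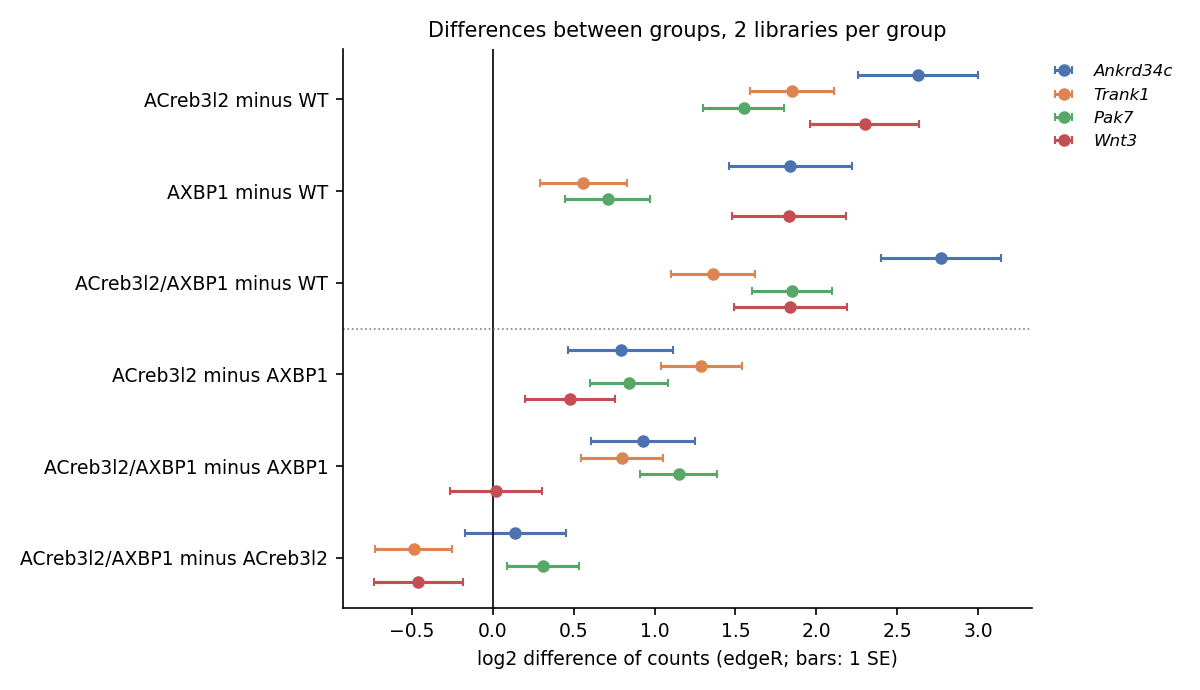
Log2 difference of counts (x axis, edgeR) for each gene in the 6 comparisons between groups (y axis), with bars of 1 SE. Comparisons above the dotted line include WT and chose the genes. Below it, Trank1 in ACreb3l2 minus AXBP1 (1.29) and Pak7 in ACreb3l2/AXBP1 minus AXBP1 (1.15) lie furthest from 0.

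Per length, all 4 transcripts were rare in the lobe. Mean FPKM (read pairs per kilobase, corrected for sequencing depth) in WT was 0.225 for Ankrd34c, 0.230 for Trank1, 0.214 for Pak7 and 0.0578 for Wnt3, and at most 1.74% of tested coding genes had a lower WT mean. Ankrd34c reached 1.46 in ACreb3l2 and 1.42 in ACreb3l2/AXBP1, where 14.3% of tested coding genes had lower means in either group. In its highest group, Pak7 reached 0.800 (ACreb3l2/AXBP1), Trank1 0.679 (ACreb3l2) and Wnt3 0.291 (ACreb3l2), the last with 2.27% of tested coding genes below it. Ratios of mean FPKM to WT in ACreb3l2/AXBP1 were 6.33 for Ankrd34c, 3.75 for Pak7, 3.46 for Wnt3 and 2.64 for Trank1, next to 6.78, 3.61, 3.64 and 2.56 from normalized counts in the same order.

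The FPKM and count tables differed on Trank1 within groups. Its FPKM was 0.434 and 0.783 in the ACreb3l2/AXBP1 libraries, where normalized counts were 180 and 177, and 0.270 and 0.191 in WT, where replicate 1 had the lower count. FPKM per normalized count of Trank1 varied 2.03-fold between libraries, against 1.15-fold for Wnt3, 1.16-fold for Pak7 and 1.44-fold for Ankrd34c. On the FPKM scale the ACreb3l2 and ACreb3l2/AXBP1 libraries of Trank1 overlapped (0.742 and 0.616 in ACreb3l2), which they did not do in counts.

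Over the 8 libraries, log2 CPM of Ankrd34c and Pak7 had a Pearson r of 0.95, Ankrd34c and Wnt3 of 0.93, and Trank1 and Pak7 of 0.90. The lowest r, 0.82, was found for Wnt3 with Trank1 and with Pak7. All of these points share the low WT libraries that chose the genes. Over the 6 transgenic libraries r was 0.90 for Ankrd34c and Pak7, 0.79 for Trank1 and Wnt3, 0.44 for Ankrd34c and Wnt3, and 0.33 for Pak7 and Wnt3.

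None of the 4 genes had another of them among its 5 most alike coding genes by Pearson r over the 8 libraries. The gene most like Ankrd34c was Maml2, a mastermind family coactivator (r = 0.990), whose mean normalized counts were 797 in WT, 1019 with ACreb3l2, 958 with AXBP1 and 1064 with both. After it came Gab1, an adaptor of receptor tyrosine kinases (r = 0.986), Ube2h (0.985), Exoc1 (0.983) and Mtmr14 (0.977). Most like Trank1 were Ucma (0.984), with means of 39.5, 100, 51.6 and 79.8 in the same order of groups, then Fabp7, the fatty acid binding protein of radial glia (0.978), Parm1 (0.975), Ppm1h (0.965) and Ndrg1 (0.963). For Pak7 they were Trim21, an intracellular antibody receptor (0.980), 6330408A02Rik (0.979), Dtx3l (0.978), Dzip1 (0.975) and the tight junction protein Cgn (0.975). For Wnt3 they were Mllt6 (0.966), Agbl2 (0.963), Calcoco1 (0.959), Rph3al (0.951) and Mtmr14 (0.946). The ratio of the highest to the lowest group mean was 1.16 to 1.33 in the 5 genes most like Ankrd34c, against 6.78 in Ankrd34c itself. It was 1.19 to 2.54 against 3.60 for Trank1, 1.29 to 1.48 against 3.61 for Pak7 and 1.16 to 1.33 against 5.02 for Wnt3.

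Genes beside the 4 loci were compared with WT to see how far the differences extended along the chromosome. The 3 nearest tested coding genes on each side were taken, 24 in all. None was called higher in any of the 3 comparisons with WT, beside 0.539% of tested genes called higher in ACreb3l2, 3.06% in ACreb3l2/AXBP1 and 0% in AXBP1, where 1554 of the 15580 had an unadjusted p below 0.05 and DESeq2 called 80 in all. Their log2 differences ran from -0.65 to 0.43 with ACreb3l2, -0.20 to 0.70 with AXBP1 and -0.67 to 0.88 with both. The 0.88 was that of Dclk3, a kinase 43306 bases beyond Trank1 (SE 0.267, edgeR adjusted p = 0.0634). Wnt9b, which adjoins Wnt3, is not among the 24 because its count was under the filter, and it was not tested. Its mean normalized counts were 2.60 in WT, 11.2 with ACreb3l2, 3.13 with AXBP1 and 1.93 with both.

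Of those 24 neighbours, 1 fell in ACreb3l2 and 2 fell in ACreb3l2/AXBP1, beside 2.5% and 6.99% of tested genes called lower. Tmed3, a p24 family cargo protein of the early secretory pathway, lies 20177 bases from Ankrd34c. It fell by 0.62 on the log2 scale in ACreb3l2 (edgeR adjusted p = 0.0199) and by 0.67 in ACreb3l2/AXBP1 (adjusted p = 0.00995). Gosr2, a Golgi SNARE 76252 bases from Wnt3, fell by 0.49 in ACreb3l2/AXBP1 (adjusted p = 0.00914). The Tmed3 call in ACreb3l2 was lost without WT replicate 2 (adjusted p = 0.115), without ACreb3l2 replicate 1 (0.124) and without ACreb3l2 replicate 2 (0.12). In ACreb3l2/AXBP1 the calls were lost without WT replicate 2, at 0.0555 for Tmed3 and 0.053 for Gosr2, and without ACreb3l2/AXBP1 replicate 2, at 0.0931 and 0.0759. Nsf, the closest of the 24 neighbours at 3825 bases from Wnt3, differed by -0.09 with ACreb3l2, -0.08 with AXBP1 and -0.21 with both, and none passed the test.

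**Figure D3:**
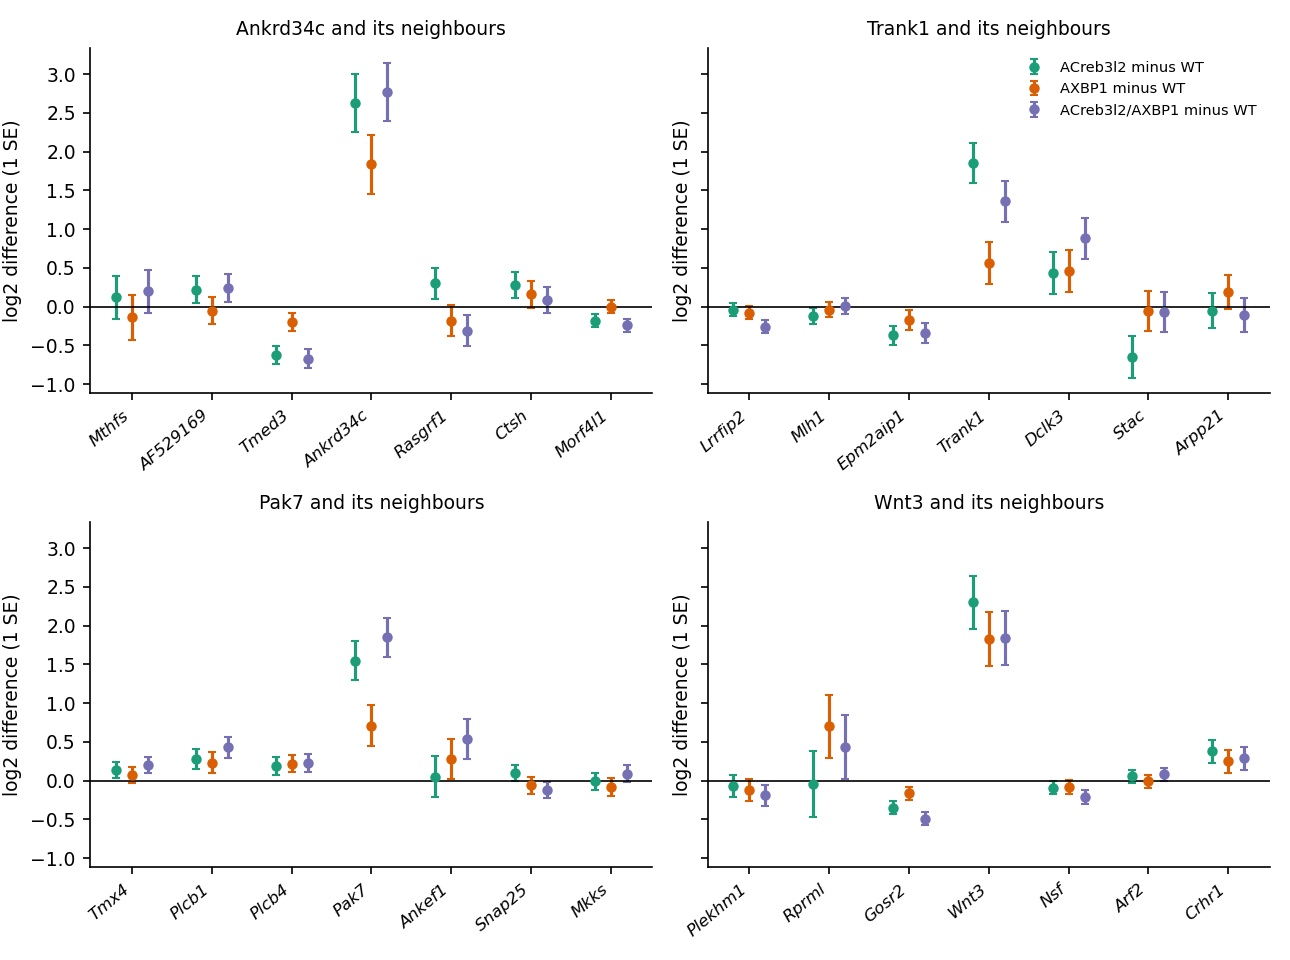
Log2 difference from WT (y axis, bars of 1 SE) for each of the 4 genes and the 3 nearest tested coding genes on each side, in chromosome order (x axis). Colours mark the 3 transgenic groups. The neighbours lie between -0.67 and 0.88, and Tmed3 and Gosr2 are the ones called, both lower.

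Other Wnt pathway genes were measured for context with Wnt3. Wnt5b was the Wnt ligand with the highest mean FPKM in WT (15.0), followed by Wnt5a (3.32) and Wnt4 (1.17). Wnt3, at 0.0578, stood below Wnt2 (0.152), Wnt10b (0.171) and Wnt16 (0.194) in WT and above them in ACreb3l2 (0.291 against 0.244, 0.197 and 0.142). With AXBP1 it stood at 0.186, below Wnt2 (0.231) and Wnt16 (0.211) and above Wnt10b (0.134), and with both at 0.200, below Wnt2 (0.257) and Wnt10b (0.245) and above Wnt16 (0.0871). Of 20 listed ligands and secretion factors, 10 passed the count filter and none was called in any comparison with WT, and 0 of 10 is near the share called of all tested genes. That share was 0.539% higher and 2.5% lower with ACreb3l2, 0% with AXBP1, and 3.06% higher and 6.99% lower with both. The 10 had a median log2 difference of -0.15 with ACreb3l2, -0.03 with AXBP1 and -0.19 with both. Wnt3a, the closest relative of Wnt3, had a mean of 1.03 normalized counts in WT and 0.443 in ACreb3l2/AXBP1. Wnt9b, the ligand gene that adjoins Wnt3 in the genome, had means of 2.60 in WT, 11.2 with ACreb3l2, 3.13 with AXBP1 and 1.93 with both and was not tested for its low count.

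Of 61 tested Wnt pathway genes other than Wnt3, 1 was called higher in ACreb3l2 (1.64%, beside 0.539% of all tested genes), none in AXBP1 and 4 in ACreb3l2/AXBP1 (6.56%, beside 3.06%), and none was called lower. Their median log2 difference was 0.03, 0.08 and 0.08 in these groups, beside 0.01, 0.00 and 0.01 over all tested genes. Lgr5, a receptor of R-spondins and a beta-catenin target, rose by 0.99 (SE 0.181, edgeR adjusted p = 0.0214) in ACreb3l2 and by 1.01 (SE 0.181, adjusted p = 0.0122) in ACreb3l2/AXBP1. In ACreb3l2/AXBP1, Axin2, a beta-catenin target that limits the signal, rose by 0.50 (SE 0.112, adjusted p = 0.023), the secreted inhibitor Sfrp5 by 0.47 (SE 0.104, adjusted p = 0.0219) and the R-spondin receptor Lgr4 by 0.40 (SE 0.106, adjusted p = 0.0424). The members that rose thus include both receptors and inhibitors.

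These Wnt pathway calls were not stable to the choice of libraries. In ACreb3l2, Lgr5 lost its call without WT replicate 2 (adjusted p = 0.103), ACreb3l2 replicate 1 (0.12) or ACreb3l2 replicate 2 (0.0958). In ACreb3l2/AXBP1 all 4 calls were lost without WT replicate 2, at 0.0619 for Lgr5, 0.0971 for Axin2, 0.134 for Sfrp5 and 0.233 for Lgr4. Without ACreb3l2/AXBP1 replicate 2 they were lost at 0.102, 0.177, 0.132 and 0.243 in the same order. Axin2 was also lost without WT replicate 1 (0.0533) and Lgr4 without ACreb3l2/AXBP1 replicate 1 (0.0607). The remaining beta-catenin targets tested, Nkd1, Nkd2, Notum, Rnf43, Znrf3, Ccnd1 and Myc, were not called. Ccnd1, for example, differed by -0.12 in ACreb3l2 and 0.02 in ACreb3l2/AXBP1. Of 14 tested Wnt receptors, 12 had positive differences with ACreb3l2, 11 with AXBP1 and 12 with both, with medians of 0.14, 0.14 and 0.13, beside 51.8%, 50.3% and 51.7% of all tested genes with positive differences. None was called, and of all tested genes 0.539% were called higher and 2.5% lower with ACreb3l2, 0% with AXBP1, and 3.06% higher and 6.99% lower with both.

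Among the PAK kinases, the rarest had its highest mean and the most abundant its lowest mean in ACreb3l2/AXBP1. Pak3, by far the most abundant, had a mean FPKM of 237 in WT, 190 with ACreb3l2, 140 with AXBP1 and 107 with both. The log2 difference of its counts in ACreb3l2/AXBP1 was -0.92 (SE 0.162, edgeR adjusted p = 0.0117), and the call was lost without WT replicate 2 (0.0633). Pak7 ran from 0.214 to 0.800 FPKM over the same groups. Pak1 (12.4 FPKM in WT), Pak2 (17.3), Pak4 (7.17) and Pak6 (3.69), the last 2 being the kinases nearest to Pak7 in sequence, were not called in any comparison with WT.

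Of 22 tested genes of the PAK pathway other than Pak7, 0 were called with either single transgene, beside 0.539% of all tested genes called higher and 2.5% lower in ACreb3l2 and 0% in AXBP1, and 2 were called lower with both (9.09%, beside 6.99%). The other of the 2 was Git1, a scaffold that brings PAKs to focal adhesions, with -0.42 (SE 0.114, adjusted p = 0.0446), and its call was lost without WT replicate 1 (0.0557), WT replicate 2 (0.193) or ACreb3l2/AXBP1 replicate 2 (0.289). Cdc42, which binds Pak7, differed by -0.17, -0.07 and -0.10 in ACreb3l2, AXBP1 and ACreb3l2/AXBP1, and the cofilin kinases Limk1 and Limk2 were not called. The median of the 22 was -0.02 in ACreb3l2 and -0.04 in ACreb3l2/AXBP1. Of the Ankrd34 genes, Ankrd34a was tested and not called, with -0.15, -0.37 and -0.74 in the 3 groups, and Ankrd34b was under the count filter with a mean of 11.4 normalized counts in WT and 3.25 in ACreb3l2/AXBP1.

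**Figure D4:**
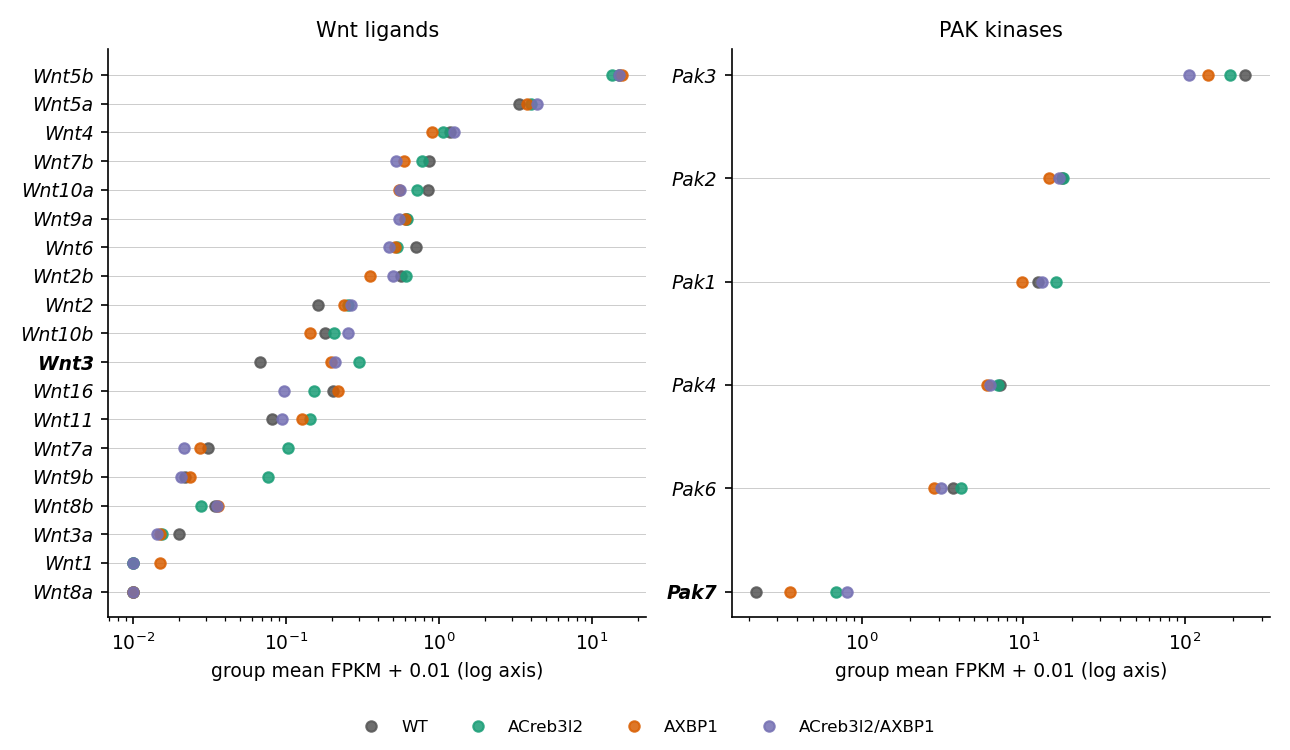
Mean FPKM of each group plus 0.01 (x axis, log scale) for the Wnt ligands (left) and PAK kinases (right), ordered by their mean over groups. Wnt3 and Pak7 are in bold. Pak7 lies lowest of its family and Pak3 highest, and WT is the lowest group for Pak7 (0.214) and the highest for Pak3 (237).

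Markers of other cell types were summed in each library for comparison. In the order WT, ACreb3l2, AXBP1 and ACreb3l2/AXBP1, the 7 pituicyte and astroglia markers summed to 432 to 553, 539 to 648, 537 to 603 and 565 to 690 CPM. The 3 stem cell markers, of which Sox2 gave 95.7% to 98.0% of the counts, summed to 73.0 to 86.6, 103 to 107, 93.1 to 100 and 104 to 126 CPM. The stem cell sums of the 3 transgenic groups lay above WT, as did the glial sums of ACreb3l2/AXBP1. The glial sums of ACreb3l2 and of AXBP1 overlapped WT, and Slc1a3 gave 42.22% to 48.45% of the glial sums. In the TMM-scaled fit, 7 of 7 glial markers had positive differences from WT with ACreb3l2, 5 with AXBP1 and 7 with both. Their medians were 0.46, 0.18 and 0.42. Of 2 stem cell markers tested, 1, 2 and 2 were positive in the same order, with medians of 0.11, 0.41 and 0.37.

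The 8 neuron markers summed to 161 to 171, 179 to 203, 171 to 193 and 168 to 196 CPM in that order, but in the fit scaled by TMM, as used for the 4 genes, 7 of 7 tested neuron markers had positive differences from WT with ACreb3l2, 5 with AXBP1 and 2 with both, with medians of 0.27, 0.02 and -0.04. Endothelial markers (6 genes) summed to 120 to 162, 109 to 186, 171 to 223 and 194 to 245 CPM. Fibroblast and pericyte markers (7) summed to 636 to 895, 689 to 878, 878 to 1047 and 943 to 1189 CPM. The ACreb3l2 range of both lists overlapped that of WT, and the ACreb3l2/AXBP1 range lay above WT. With AXBP1 the endothelial range lay above WT, and the fibroblast and pericyte range overlapped it. In the fit 3 of 6 endothelial markers were positive with ACreb3l2, 6 with AXBP1 and 6 with both. Their medians were -0.01, 0.42 and 0.51. Of the 7 fibroblast and pericyte markers, 2, 7 and 6 were positive in that order, with medians of -0.05, 0.28 and 0.37. Macrophage markers (7) summed to 289 to 349, 321 to 432, 316 to 344 and 325 to 365 CPM, and in the fit 6 of 7 were positive with ACreb3l2, 4 with AXBP1 and 3 with both, with medians of 0.15, 0.01 and -0.03. The 7 anterior lobe markers summed to 4730 to 6486, 3880 to 5036, 2479 to 2536 and 3593 to 6556 CPM, with 62.0% to 84.8% of each sum from Gh. In the fit 4 of these 7 were positive with ACreb3l2, 1 with AXBP1 and 3 with both, with medians of 0.05, -0.51 and -0.08, and with ACreb3l2 the gonadotrope genes Fshb (1.06), Cga (0.80) and Lhb (0.70) were positive and Gh (-0.59) negative, none of them called. The 5 erythroid markers summed to 365 to 842, 598 to 1103, 453 to 639 and 514 to 633 CPM. In the fit 5 of 5 were positive with ACreb3l2, 0 with AXBP1 and 0 with both, with medians of 0.45, -0.19 and -0.24.

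Of 54 marker genes tested, 3 were called in a comparison with WT, all in ACreb3l2/AXBP1 (0 with either single transgene), and of the 54 there, 2 were higher (3.7%, beside 3.06% of all tested genes) and 1 lower (1.85%, beside 6.99%). Tbx19, the melanotrope factor Tpit, fell by 0.88 on the log2 scale (SE 0.185, edgeR adjusted p = 0.0245). The glial water channel Aqp4 rose by 0.51 (SE 0.140, adjusted p = 0.0464) and the stem cell factor Sox2 by 0.37 (SE 0.093, adjusted p = 0.0354). All 3 calls were lost without WT replicate 2 (0.146, 0.24 and 0.191 in that order) and without ACreb3l2/AXBP1 replicate 2 (0.0828, 0.338 and 0.272), and that of Tbx19 also without WT replicate 1 (0.0515). No marker was at 0 in all libraries, and the part of these cells in the levels of the 4 genes was not tested.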

How the data were processed

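The labels gave 4 groups of 2 libraries of 50 bp paired end reads, and both deposited tables were matched to them by library name. The authors deposited raw counts per Ensembl gene without normalization. In the study's methods reads were trimmed with Trimmomatic 0.22, aligned to mm10 with Tophat 2.0.8 and counted with HTSeq-count 0.5.4, while a software list names another aligner. The labels state ribosomal depletion and the methods a stranded mRNA kit, and the strand setting of the counting and the annotation release are not given in the sources used here. The authors also deposited FPKM values per locus, which were summed for 51 identifiers listed at more than 1 locus. Reads of near-identical genes may be split between them in either table.

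Genes with a mean above 20 counts after median-ratio scaling were tested (15580 genes, 99.9% of counts). Counts were fitted in edgeR 4.0.16 (R 4.3.3) with TMM factors (0.913 to 1.1), robust dispersion and the quasi-likelihood test, with 1 mean per group over all 8 libraries, a common coefficient of variation of 0.107, and Benjamini-Hochberg adjustment over all tested genes. A gene was called at an adjusted p under 0.05. Intervals are 95% intervals from the fitted SE, and Poisson intervals cover counting error only. The code was tested on simulated counts. Replicates were distinct libraries, with log2 counts correlated at 0.988 to 0.994 across genes and chi-squared values of 10.7 to 48.5 per degree of freedom. Alternatives were DESeq2 1.42.0, limma 3.58.1 on log2(FPKM + 0.1) and log2(FPKM + 1), other scalings, no count filter, the compared groups alone, a replicate block and leaving out each library. Sums of markers are CPM of raw counts, and log2 CPM used a prior count of 2.

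The 4 genes and all lists were chosen with earlier results of these data known. Named genes were the 4, overlapping genes, the 3 nearest tested coding genes on each side, listed genes called in a comparison, the 5 most alike by Pearson r and the 10 largest called rises of coding genes per transgenic group against WT. Others are named as family members or examples, chosen after their values were seen.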

Additional observations from a re-analysis of the deposited data

How the results depend on the processing

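With 2 pools per group, 1 library decides many calls, and counts of genes called depended on the tool and on the count filter. Of 144 alternative values for the 4 genes between transgenic groups, 129 kept direction and side of the threshold, 9 became called and 6 reversed. Among the 129, Wnt3 had no DESeq2 adjusted p in ACreb3l2 minus AXBP1 or in ACreb3l2/AXBP1 minus AXBP1, and is counted there by direction alone. Of 144 alternative values against WT, which have no threshold, 112 moved by less than the spread between replicates and 32 by more. Of 180 counts of genes called (all genes, pathways and neighbours), 99 stayed within 1.5 times the count reported and 81 did not. Of 156 for the other genes called, 99 kept the call and 57 lost it, with none reversed. Wnt3 rested on 7 and 6 reads in the WT libraries, so its level there is imprecise. The cause of the changes listed here was not tested, except that the pseudocount is large next to these low FPKM values and shrinks their differences by construction.

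On the log2(FPKM + 0.1) scale the differences from WT in ACreb3l2, AXBP1 and ACreb3l2/AXBP1 were 2.28, 1.24 and 2.20 for Ankrd34c, 1.24, 0.13 and 1.07 for Trank1, 1.34, 0.52 and 1.51 for Pak7, and 1.31, 0.86 and 0.93 for Wnt3. On the log2(FPKM + 1) scale they were 1.00, 0.44 and 0.96 for Ankrd34c, 0.45, 0.03 and 0.38 for Trank1, 0.48, 0.15 and 0.56 for Pak7, and 0.29, 0.17 and 0.18 for Wnt3. With library size alone Wnt3 was 2.37 in ACreb3l2 and 2.00 in ACreb3l2/AXBP1.

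The difference of Ankrd34c in ACreb3l2/AXBP1 minus ACreb3l2, which was not called, reversed to -0.08 and -0.04 on the 2 FPKM scales and ran from -0.40 to 0.52 with a library left out. It was -0.11 without ACreb3l2 replicate 1 and -0.40 without ACreb3l2/AXBP1 replicate 2. That of Wnt3 in ACreb3l2/AXBP1 minus AXBP1 ran from -0.06 to 0.10, with -0.06 without AXBP1 replicate 1 and -0.02 without ACreb3l2/AXBP1 replicate 2.

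Without the filter on low counts, ACreb3l2 minus AXBP1 was called for Ankrd34c (0.80, edgeR adjusted p = 0.00892), Trank1 (1.30, 9.71e-08) and Pak7 (0.85, 0.049), and ACreb3l2/AXBP1 minus AXBP1 for Ankrd34c (0.93, 0.000896), Trank1 (0.80, 0.00871) and Pak7 (1.15, 0.000936). Trank1 in ACreb3l2 minus AXBP1 was also called by DESeq2 (1.29, 0.00118), and left-out libraries gave 0.92 to 1.76.

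With a library left out, differences from WT ran from 2.35 to 2.95 in ACreb3l2, 1.56 to 2.15 in AXBP1 and 2.23 to 3.15 in ACreb3l2/AXBP1 for Ankrd34c. In the same order they ran from 1.66 to 2.06, 0.09 to 0.93 and 1.17 to 1.56 for Trank1, from 1.38 to 1.72, 0.54 to 0.88 and 1.64 to 2.03 for Pak7, and from 2.27 to 2.34, 1.75 to 1.91 and 1.80 to 1.88 for Wnt3.

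All genes called numbered 473 in ACreb3l2 minus WT, 0 in AXBP1 minus WT, 1566 in ACreb3l2/AXBP1 minus WT, 112 in ACreb3l2 minus AXBP1, 97 in ACreb3l2/AXBP1 minus AXBP1 and 0 in ACreb3l2/AXBP1 minus ACreb3l2. In that order, no filter gave 1455, 628, 3209, 730, 755 and 513. DESeq2 gave 755, 80, 2085, 263, 283 and 36. On the log2(FPKM + 0.1) scale the counts were 284 and 6 for the single transgenes against WT and 45 and 37 for ACreb3l2 and ACreb3l2/AXBP1 against AXBP1, and on the log2(FPKM + 1) scale 270, 9, 30 and 32. Library size alone gave 304 in ACreb3l2 minus WT and 55 in ACreb3l2/AXBP1 minus AXBP1. The compared groups alone gave 275, 2 and 654 against WT. Left-out libraries gave 153 to 618, 0 to 9, 218 to 2084, 18 to 51, 7 to 127 and 1 to 11.

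Wnt pathway calls of 1, 0 and 4 in ACreb3l2, AXBP1 and ACreb3l2/AXBP1 against WT became 5, 2 and 11 with no filter, 2 in ACreb3l2 with DESeq2, 0 in ACreb3l2 and in ACreb3l2/AXBP1 on both FPKM scales, and 2 in ACreb3l2/AXBP1 with the compared groups alone. Left-out libraries gave 0 to 2 and 0 to 5 in ACreb3l2 and ACreb3l2/AXBP1. PAK pathway calls of 0, 0 and 2 became 1 in ACreb3l2 and 1 in AXBP1 with no filter, 1 in AXBP1 with DESeq2, and 1 in ACreb3l2/AXBP1 on both FPKM scales and with the compared groups alone, while left-out libraries gave 0 to 1 and 0 to 4. Neighbour calls of 1 and 2 in ACreb3l2 and ACreb3l2/AXBP1 became 3 and 6 with no filter, 2 and 4 with DESeq2, and 0 to 2 and 0 to 4 with a library left out.

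Groups share replicate numbers, but nothing in the labels ties equal numbers to a shared origin, and deviations of equal numbers from their group means correlated at -0.197 to 0.089, so the numbers were taken as names. A replicate block gave Trank1 in ACreb3l2 minus AXBP1 an edgeR adjusted p of 0.0438 (1.32), took the calls to 3 in AXBP1 minus WT and to 58 in ACreb3l2/AXBP1 minus AXBP1, and left 1 PAK pathway call in ACreb3l2/AXBP1, as Git1 (adjusted p = 0.0549) was lost. It also lost Lgr4 (0.0673), Aqp4 (0.0688) and Sox2 (0.0615).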
